A study of Mus musculus with 4 samples.

Results

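Ruvbl1 and Ruvbl2 encode the paired ATPases of the RUVBL family, and their DNA methylation was read here from 120 windows of 100 bp among the 1048575 windows of the deposited table. The windows are all those that overlap the annotated span of a gene or the 1000 bp before and after it, 67 for Ruvbl1 and 53 for Ruvbl2. These are 2 of the 9572 protein-coding loci in the range of the table, which covers chromosomes 1 to 6 and chromosome 7 up to position 139972600. Both loci were chosen with earlier results of these data known, and Ruvbl1 for its low ratio of PLZFon to WT reads. The ratios between the MeDIP libraries below therefore describe the loci and support nothing further.

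The cells were natural killer T (NKT) thymocytes of C57BL/6 mice, sorted from thymus by binding of a CD1 tetramer, from wild-type (WT) mice and from mice named PLZFon. MeDIP-seq was applied: an antibody to 5-methylcytosine captures methylated fragments of sheared DNA, which are sequenced, and untreated sheared DNA (input) serves as the control. There was 1 MeDIP and 1 input library for each genotype, 4 in all. The labels give no age, no description of the PLZFon allele and no number of animals behind a library, and their antibody field names the antibody for both WT libraries and none for both PLZFon libraries. PLZF, a zinc finger transcription factor needed for the innate-like features of NKT cells, is the protein whose acetylation the series is about. The libraries held from 10633609 (PLZFon MeDIP) to 60683037 (WT input) reads, with 15141449 for WT MeDIP and 50374582 for PLZFon input. With 1 library in each group no difference has a replicate check, and each describes these libraries, not the genotypes. All 95% intervals are Clopper-Pearson intervals unless another kind is named, and they cover counting error only. Over loci, islands and bins they rest on window sums divided by 4, the windows a read is taken to be counted in. They are approximate there, and their width depends on that number. Marker genes of NKT cells could not be checked, since DNA and not RNA was measured.

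RUVBL1 (pontin) and RUVBL2 (reptin) are AAA+ ATPases that assemble with each other into rings. The rings are the shared core of the chromatin remodellers INO80 and SRCAP, which handle the histone variant H2A.Z, and of the TIP60 acetyltransferase complex, and they work with HSP90 in the R2TP complex, which builds other large assemblies. Methylation of CpG, the usual substrate in mammals, is common along the bodies of transcribed genes and rare at CpG-rich start sites.

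The sequence around the start sites is shown first, because no listed window lay over it in either gene. A window was listed where the MeDIP libraries together held at least 10 reads and the CpG factor, the authors' score of CpG content per window, was at least 1. An absent window is thus one of few MeDIP reads or of little CpG, and not one without reads. The sequences are from RefSeq (GRCm38.p6, the assembly of mm10), 250 bases before to 50 bases after the start site, written 5′ to 3′ on the strand of the gene with each CpG in capitals. They are chr6:88465159-88465458 on the plus strand for Ruvbl1 and chr7:45434415-45434714 on the minus strand for Ruvbl2. The table of promoters places the Ruvbl2 start site at 45434464, inside the annotated gene, whose outermost transcripts begin at 45436171, and all distances refer to 45434464.
Ruvbl1: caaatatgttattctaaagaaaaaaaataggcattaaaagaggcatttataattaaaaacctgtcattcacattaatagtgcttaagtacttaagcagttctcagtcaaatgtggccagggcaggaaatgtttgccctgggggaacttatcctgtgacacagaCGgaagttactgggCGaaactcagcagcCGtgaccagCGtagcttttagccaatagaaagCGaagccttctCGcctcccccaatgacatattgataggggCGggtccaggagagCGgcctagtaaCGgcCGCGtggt
Ruvbl2: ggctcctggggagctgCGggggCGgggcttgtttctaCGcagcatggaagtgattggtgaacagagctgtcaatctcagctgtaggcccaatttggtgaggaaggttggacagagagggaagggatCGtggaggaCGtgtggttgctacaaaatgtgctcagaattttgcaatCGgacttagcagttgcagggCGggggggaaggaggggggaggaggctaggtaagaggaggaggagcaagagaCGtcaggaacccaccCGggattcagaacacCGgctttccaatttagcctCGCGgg
The Ruvbl1 sequence holds 11 CpG in 300 bases and the Ruvbl2 sequence 12, near the median of 13 over 9786 promoters of protein-coding genes in the range of the table. In Ruvbl1 the CpG lie in the bases nearest the start site, and in Ruvbl2 they are spread over the whole stretch. The letters CCAAT, searched on both strands, occur 2 times in Ruvbl1 and 3 times in Ruvbl2, and are found in 37.9% of those promoters. The letters GGGCGG, also on both strands, occur 1 time in Ruvbl1 and 2 times in Ruvbl2, against 46% of promoters with at least 1 match. These matches describe the letters alone.

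Over both start sites the table lists nothing for a long stretch. In Ruvbl1 (chromosome 6, 88465409 to 88497566, 32158 bp) no window is listed from 88464901 to 88471500, 6.6 kb that begin just before the start site. In Ruvbl2 (chromosome 7, 45421896 to 45436171, 14276 bp, minus strand) the stretch runs over 3 kb, from 45433501 to 45436500. It also covers the start of Gys1, the muscle glycogen synthase gene, which overlaps Ruvbl2 by 1333 bp. A promoter without a listed window was common: 89.9% of the 9786 promoters had none, and 96.3% of the 5455 with at least 10 CpG. The listed windows of both genes therefore describe the gene body and the sequence beyond its ends. No exon table of this build was used here, so windows are placed by distance from the start site.

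Over its body Ruvbl1 had fewer MeDIP reads in PLZFon than in WT. A read is counted in about 4 neighbouring windows, so reads over a locus are taken as the window sums divided by 4. Reads with part of their windows unlisted are undercounted in this way. Ruvbl1 had 93.8 PLZFon and 208.25 WT MeDIP reads, or 8.82 and 13.8 RPM (reads for every 1000000 of the library). The input libraries held 154.5 PLZFon and 207 WT reads, or 3.07 and 3.41 RPM. The PLZFon over WT ratio, each library scaled to its depth, was 0.641 for MeDIP (0.497 to 0.822) and 0.899 for input (0.725 to 1.11). The MeDIP interval lay below equality and the input interval included it.

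Ruvbl2 stood on the same side with a smaller difference. It had 77.3 PLZFon and 158.5 WT MeDIP reads, or 7.26 and 10.5 RPM, and 131.5 and 181 input reads, or 2.61 and 2.98 RPM. Its MeDIP ratio was 0.694 (0.522 to 0.917) and its input ratio 0.875 (0.694 to 1.1). The intervals of both genes overlap widely, so the genes were not told apart by this ratio.

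Among the 3556 protein-coding loci with at least 200 MeDIP reads, Ruvbl1 had the second lowest MeDIP ratio and Ruvbl2 ranked 13 from the lowest. The median of these loci was 0.958, and 90% of them lay between 0.8 and 1.14. A locus was called at 1.5-fold or more in either direction with an interval excluding equality. Ruvbl1 met this rule and Ruvbl2 did not, although it did under 3 of 9 alternatives, which ran from 0.574 to 0.763. Among the 3 was leaving out its island with the most reads (0.615, 0.432 to 0.864), chosen after seeing the data. That island had a ratio of 0.908, above that of the locus, so its removal lowers the ratio by construction. Of the 3556 loci 0.0562% were called lower and 0% higher, and of the 7668 loci with at least 20 reads 0.991% were called lower. An interval below equality was found at 8.07% of the 3556 loci. Because Ruvbl1 was chosen by this ratio, nothing is read from its place in the order.

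**Figure D1:**
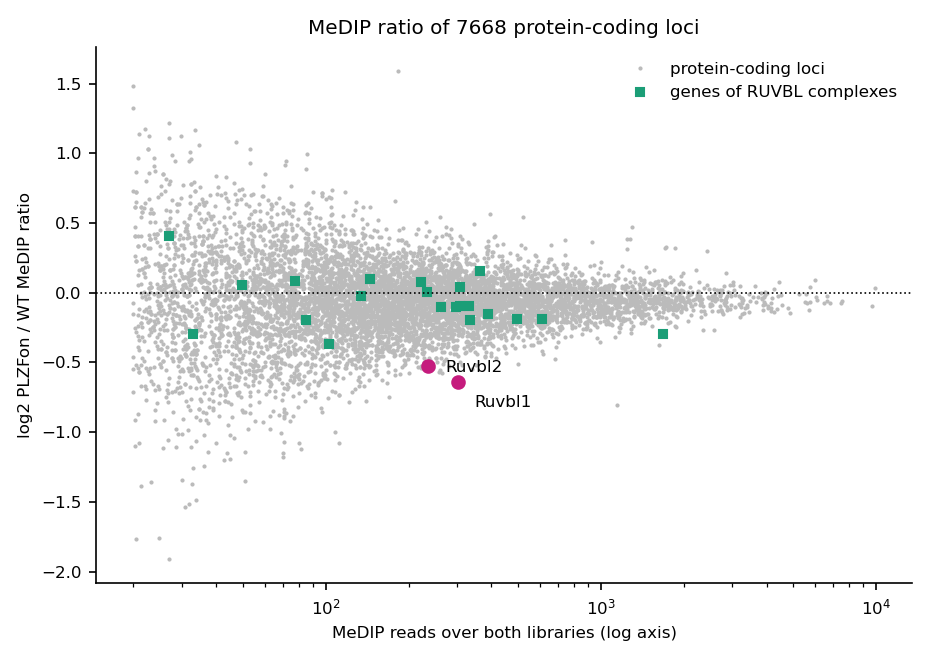
Log2 PLZFon over WT MeDIP ratio (y axis) against MeDIP reads over both libraries (x axis, log scale) for 7668 protein-coding loci, each a point, with 20 or more reads. Ruvbl1 (-0.64) and Ruvbl2 (-0.53) lie at the lower edge of loci with similar read numbers, and the squares of the other genes of RUVBL complexes lie nearer to 0.

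The pull-down was also set against the input of the same genotype. Depth-scaled MeDIP reads over Ruvbl1 were 4.03 times the input in WT (3.31 to 4.91) and 2.87 times in PLZFon (2.2 to 3.74). Over Ruvbl2 they were 3.51 times in WT (2.82 to 4.37) and 2.78 times in PLZFon (2.07 to 3.71). The medians of loci with at least 200 reads were 4.39 in WT and 4.17 in PLZFon. The WT value of Ruvbl1 stood at percentile 30.3 of these loci and that of Ruvbl2 at 9.93, while the PLZFon values stood at 3.63 and 2.81. Windows were listed for their MeDIP reads whatever their input, so all of these values can be raised by the selection. They use the same MeDIP reads as the ratio by which Ruvbl1 was chosen, and are likewise a description.

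Setting the genotypes against each other after division by their own inputs narrowed the difference. The PLZFon value over the WT value was 0.713 for Ruvbl1 (0.517 to 0.983, log-normal interval) and 0.793 for Ruvbl2 (0.557 to 1.13), against a median of 0.947 over the 3556 loci. The interval of Ruvbl1 includes equality when libraries are scaled to the listed windows (0.75, 0.544 to 1.03) or when the flanks are left out (0.728, 0.52 to 1.02). The input ratio of Ruvbl2 was at percentile 5.2 and that of Ruvbl1 at 8.75 of these loci, with intervals that include equality. The part of the inputs in the MeDIP difference was not tested beyond this division.

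The difference was spread over many windows of both genes. Depth-scaled MeDIP reads were lower in PLZFon in 54 of 67 windows of Ruvbl1 and in 39 of 53 of Ruvbl2, against 53.8% of all listed windows. In the inputs PLZFon was lower in 39 and in 34 of those windows, against 48.9%. Raw counts per window over Ruvbl1 ranged from 1 to 12 in PLZFon MeDIP (median 6) and from 5 to 26 in WT MeDIP (median 12). Over Ruvbl2 they ranged from 2 to 12 (median 6) and from 4 to 28 (median 11). The genotypes overlap in their window counts, and the WT library was also the deeper. Neighbouring windows share reads and are not separate observations.

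Listed windows fell into islands, here runs with less than 400 bp between neighbours, a definition chosen after the windows had been seen. Ruvbl1 had 12 islands and Ruvbl2 had 7. Reads of an island are also its window sums divided by 4. This undercounts reads at island edges, where neighbouring windows are not listed. The minimum of 20 reads and the intervals of islands rest on these lowered counts. The ratio was below 1 in 10 of 12 islands of Ruvbl1 and in 7 of 7 of Ruvbl2. No share over all islands is given without a read minimum, so these counts stand without a background. The Ruvbl2 island at 45436501 to 45437200 lies outside the annotated gene and within Gys1. It had 7.25 PLZFon and 16.25 WT MeDIP reads, a ratio of 0.635 (0.225 to 1.61), and counts among those with at least 20 reads. With at least 20 MeDIP reads there were 5 islands in Ruvbl1 and 4 in Ruvbl2, all with a ratio below 1, against 56.5% of the 79826 such islands of the table. Of these, 2 in Ruvbl1 and 0 in Ruvbl2 were called at least 1.5-fold lower, against 1.79% of all.

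The called islands of Ruvbl1 lie in separate parts of the gene. The island from 6.14 to 7.64 kb after the start site (88471501 to 88473100), the first after the unlisted stretch, had 15 PLZFon and 42.8 WT MeDIP reads, a ratio of 0.5 (0.258 to 0.918). Its input reads were 33.5 and 41.3, a ratio of 0.978 (0.601 to 1.58), which is near equality. The island from 20 to 21.4 kb (88485401 to 88486900) had 13.3 and 40 MeDIP reads, a ratio of 0.472 (0.233 to 0.896), with an input ratio of 0.801 (0.467 to 1.35). Without the first of these islands, which had the most MeDIP reads, the ratio of the whole locus was 0.678 (0.511 to 0.891), below equality but no longer past 1.5-fold.

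The other islands of Ruvbl1 had intervals that include equality and overlap each other. The island from 23.5 to 23.9 kb had the densest WT pull-down of the gene, 19.6 WT reads per window on average, and from 8.5 PLZFon and 24.5 WT reads its ratio was 0.494 (0.198 to 1.11). The island at the far end of the gene, from 31.7 to 32.6 kb, had 14.3 and 21 reads and a ratio of 0.966 (0.457 to 1.99). The island from 17.1 to 17.4 kb stood above 1 with 7.25 and 8.75 MeDIP reads (1.18, 0.377 to 3.57), while its input ratio was 0.393 (0.0871 to 1.34). The other island above 1, from 28.8 to 28.9 kb, lies within Gm46965, a predicted gene inside Ruvbl1. Each of its 2 windows had 6 PLZFon and 5 WT MeDIP reads, which the division by 4 turns into 3 and 2.5.

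In Ruvbl2 the islands of the middle of the gene had the lowest ratios of those with at least 20 reads. The island from 6.61 to 8.51 kb (45425901 to 45427900) had 18.5 PLZFon and 46 WT MeDIP reads. The MeDIP ratio there was 0.573 (0.315 to 1.002), while the inputs stood at 1.09 (0.622 to 1.88). The island from 3.11 to 4.11 kb (45430301 to 45431400) had 11.5 and 31 reads, with 0.528 for MeDIP (0.243 to 1.07) and 1.13 for input (0.642 to 1.99). Both MeDIP intervals include equality. The island nearest the start site, from 1.01 to 2.51 kb (45431901 to 45433500), had the most reads, 27.3 and 42.8, and a ratio of 0.908 (0.54 to 1.5). Its input ratio was 0.677 (0.427 to 1.06).

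**Figure D2:**
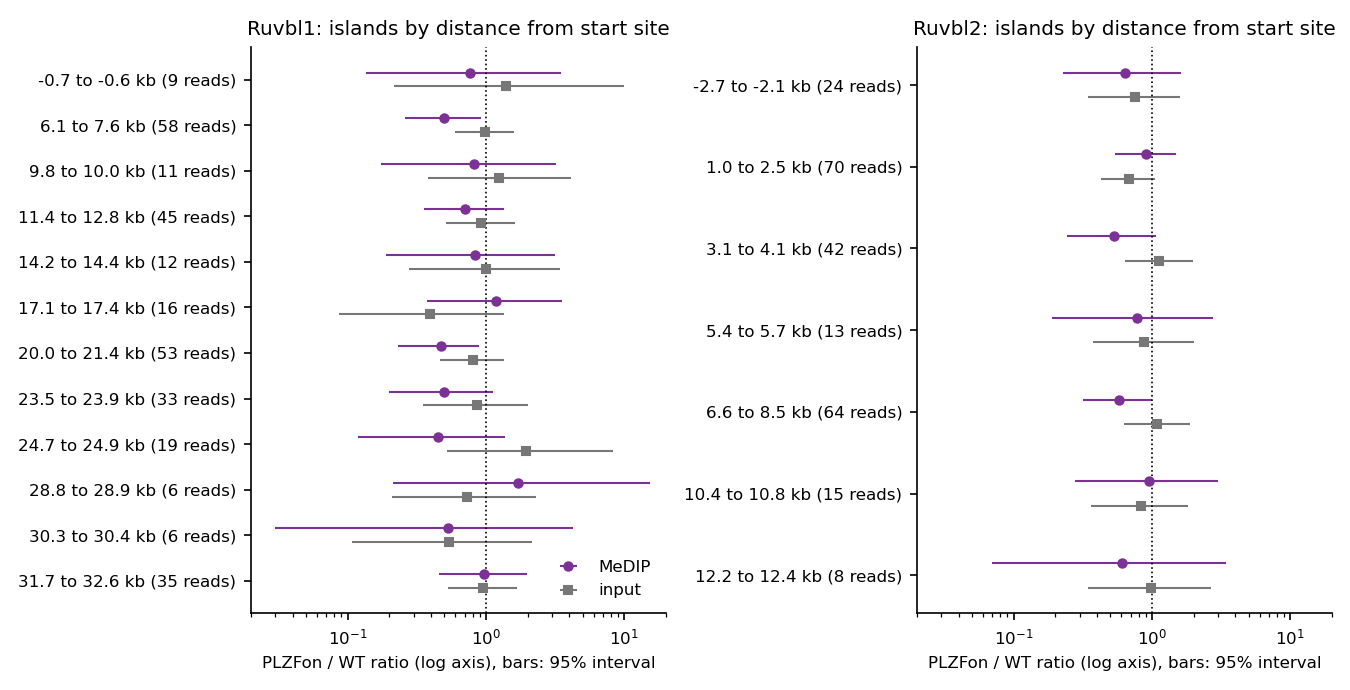
PLZFon over WT ratio (x axis, log scale) for each island of listed windows, ordered by distance from the start site in kb with its MeDIP reads in brackets, for MeDIP (circles) and input (squares), with bars for 95% intervals. The MeDIP circles at 6.14 to 7.64 kb (0.5) and 20 to 21.4 kb (0.472) of Ruvbl1 have intervals below 1, and no input interval excludes 1.

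Single windows were thin in reads. In Ruvbl1 the window with the most MeDIP reads (88489101 to 88489200) had 9 PLZFon against 26 WT reads (ratio 0.493, 0.203 to 1.09) and 8 against 11 input reads. The lowest ratio among windows with at least 20 reads was at 88486501 to 88486600, with 4 and 18 reads and a ratio of 0.316 (0.0779 to 0.961). The highest was at 88482701 to 88482800, with 12 and 14 reads (1.22, 0.516 to 2.84). Of 22 windows with at least 20 reads 2 were called at 2-fold or more lower and 0 higher, against 2.17% and 1.13% of all such windows.

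In Ruvbl2 the window with the most MeDIP reads (45427601 to 45427700) had 6 PLZFon against 28 WT reads (ratio 0.305, 0.103 to 0.751) and 9 input reads in each genotype. The lowest ratio was 200 bp away at 45427801 to 45427900, with 3 and 20 reads (0.214, 0.0406 to 0.72) and 10 input reads in each. The highest was at 45432501 to 45432600, with 9 and 12 reads (1.07, 0.397 to 2.76). Of 19 windows with at least 20 reads 4 were called lower and 0 higher, against the same 2.17% and 1.13% of all, and neighbours among them share reads. The window of highest CpG factor in Ruvbl2, a factor of 6 at 45431301 to 45431400, had 4 and 14 reads, and that in Ruvbl1, also 6, at 88464801 to 88464900 before the start site, had 6 and 12.

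The windows at the borders of the region had few reads. In Ruvbl1 the outermost windows inside had ratios of 0.831 and 0.142, the latter from 1 and 10 reads, and the next listed windows outside had 0.791 and 0.814. In Ruvbl2 they were 0.61 and 0.767 inside and 0.777 and 0.712 outside.

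The mean CpG content of the windows was ordinary. The mean CpG factor was 2.4 in Ruvbl1 and 2.13 in Ruvbl2, against 2.34 over all listed windows. Windows at a factor of 4 or more made up 19.4% of Ruvbl1 and 11.3% of Ruvbl2, against 17.3% of all listed windows. Over all windows the WT pull-down went from 3.68 times the input at a factor of 1 to 6 times at a factor of 4 or more. In WT Ruvbl1 these values were 4.84 (3.3 to 7.14) and 3.49 (2.21 to 5.49), and in Ruvbl2 3.09 (2.14 to 4.45) and 2.78 (1.33 to 5.67), with no rise beyond the intervals. The MeDIP ratio of Ruvbl1 was 0.541 (0.322 to 0.881) over its 19 windows at a factor of 1 and 0.739 (0.41 to 1.3) over its 13 windows at 4 or more. In Ruvbl2 it was 0.798 (0.498 to 1.26) over 21 windows and 0.579 (0.184 to 1.59) over 6. The intervals overlap in both genes, so no order by CpG factor could be read.

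The sequence around the genes was read in the same way. Of the 4 bins of 10 kb that overlap Ruvbl1 all 4 had a ratio below 1, and of the 3 with at least 20 reads 2 had an interval below equality, with ratios of 0.624 (0.415 to 0.923) and 0.564 (0.353 to 0.878). In the 200 kb on either side 25 of 40 bins had at least 20 reads, their median ratio was 0.973, and the interval of 0 excluded equality. The pooled ratio of these flanks was 0.944 (0.859 to 1.04) for MeDIP and 1.07 (0.981 to 1.17) for input. Since Ruvbl1 was chosen by its ratio, these flanks are given beside it as a description.

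Of the 2 bins over Ruvbl2 both were below 1 and 1 had an interval below equality, at 0.651 (0.427 to 0.977). That bin also holds windows beyond the Ruvbl2 locus, such as 45420701 to 45420800 within the neighbouring gene Lhb. The other bin (45430001 to 45440000), at 0.772 (0.578 to 1.02), also holds windows of Gys1 beyond the Ruvbl2 locus. The flanks of Ruvbl2 had 37 bins with at least 20 reads, a median of 0.965 and a range from 0.488 to 1.68, with 1 interval above equality and 0 below. Their pooled ratio was 0.951 (0.893 to 1.01). Of the 60900 such bins in all, 56.2% had a ratio below 1, 2.06% an interval below equality and 1.02% an interval above it.

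**Figure D3:**
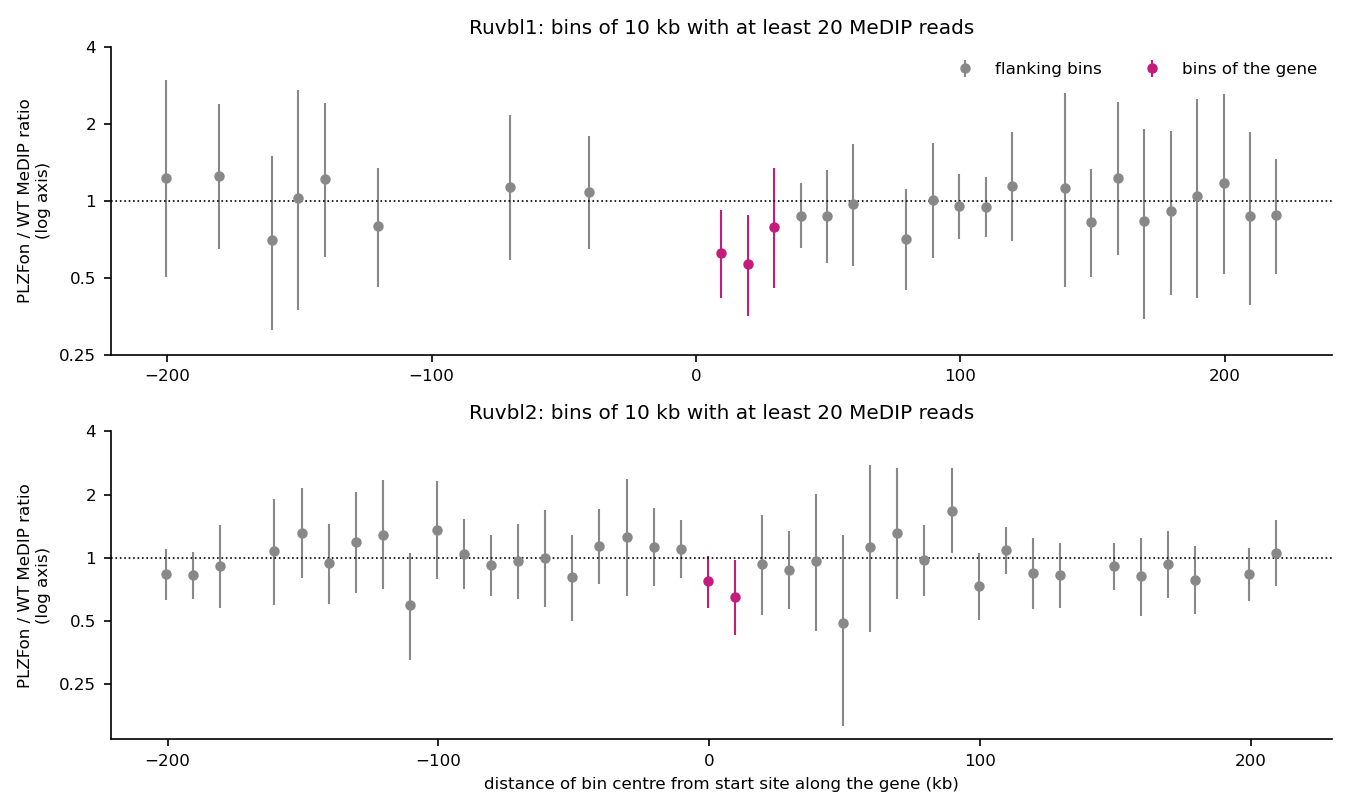
PLZFon over WT MeDIP ratio (y axes, log scale) of bins of 10 kb with at least 20 MeDIP reads against the distance of the bin centre from the start site along the gene in kb (x axes), with 95% intervals. The bins that overlap Ruvbl1 (0.564 to 0.793) and Ruvbl2 (0.651, also with windows of Lhb, and 0.772, also with windows of Gys1) are coloured. The grey flanking bins scatter around medians of 0.973 and 0.965.

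Neighbouring genes were compared as whole loci. Within 100 kb of Ruvbl1 the 4 annotated protein-coding genes ranged from 0.904 to 1.11. They were Eefsec, an elongation factor gene for selenocysteine, at 1.01 (0.825 to 1.23), Sec61a1, a subunit gene of the protein channel of the endoplasmic reticulum, at 0.904 (0.7 to 1.16), Kbtbd12 at 0.957 (0.828 to 1.11) and Gm46965 at 1.11 (0.493 to 2.42). Gm46965 lies within Ruvbl1 and shares its windows. The interval of 0 of the 4 excluded equality, where 5.01% of all loci with at least 20 reads had an interval below it and 1.24% above it.

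Around Ruvbl2 13 of 16 neighbours had at least 20 reads, and they ranged from 0.644 for Snrnp70, of the U1 splicing particle, to 1.71 for Bax, the apoptosis gene, on 37.8 and 30.3 reads. The interval of 0 of the 13 excluded equality, and at those shares of all loci a count of 0 among so few does not set the neighbours apart. Among neighbours with at least 100 reads, Gys1, which overlaps Ruvbl2, stood at 1.01 (0.813 to 1.25), Trpm4 at 0.915 (0.773 to 1.08), Ppfia3 at 1.23 (0.941 to 1.6), Kcna7 at 0.822 (0.548 to 1.22) and Dhdh at 0.978 (0.716 to 1.33). Tulp2 stood at 0.944 (0.788 to 1.13), Nucb1 at 0.99 (0.711 to 1.37), Ppp1r15a at 0.967 (0.636 to 1.46) and Plekha4 at 0.934 (0.668 to 1.3).

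Other genes of the complexes that hold RUVBL1 and RUVBL2 were then read from a list of 41, of which 22 lay in the range of the table and 21 had at least 20 reads. Their median log2 ratio was -0.10, against -0.06 over all 7668 loci with at least 20 reads. Of the 21, 13 were below 1 and 8 above, 0 were called at 1.5-fold in either direction, against 0.991% lower and 0.391% higher of all loci, and 1 had an interval below equality, against 5.01%. That gene was Trrap, the large scaffold subunit of TIP60, with 613.5 PLZFon and 1073 WT MeDIP reads. Its MeDIP ratio was 0.814 (0.736 to 0.9), and its inputs stood at 1.06 (0.963 to 1.17).

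By complex, the 8 INO80 genes had a median log2 ratio of 0.07, with Uchl5, a deubiquitinase, at 1.32 (0.572 to 3.03) and the motor subunit Ino80 at 1.12 (0.901 to 1.38). The input ratio of Ino80 was itself high, 1.26 (1.01 to 1.56). The 4 SRCAP genes had a median of -0.08, with Vps72, which binds H2A.Z, at 0.776 (0.503 to 1.18) and Dmap1, shared with TIP60, at 1.07 (0.758 to 1.51). The 6 TIP60 genes had -0.19, with 5 of 6 below 1, among them Mrgbp at 0.814 (0.365 to 1.73). Each gene was counted in 1 complex only, so Dmap1 does not enter the TIP60 values. The median over all loci with at least 20 reads was itself below 1, at a log2 ratio of -0.06. The 3 genes of R2TP and its partners had -0.10, with Pih1d1, the adaptor of R2TP, at 0.93 (0.731 to 1.18). H2az1, which encodes H2A.Z, had 10.3 MeDIP reads in all and was below the read minimum. The ratios of Ruvbl1 and Ruvbl2 were lower than those of all 21. Ruvbl1 was chosen for its low ratio, so this order describes the loci and supports nothing further. Among the 21 intervals, only that of Ino80 lay wholly above the interval of Ruvbl1, and none lay wholly above that of Ruvbl2.

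**Figure D4:**
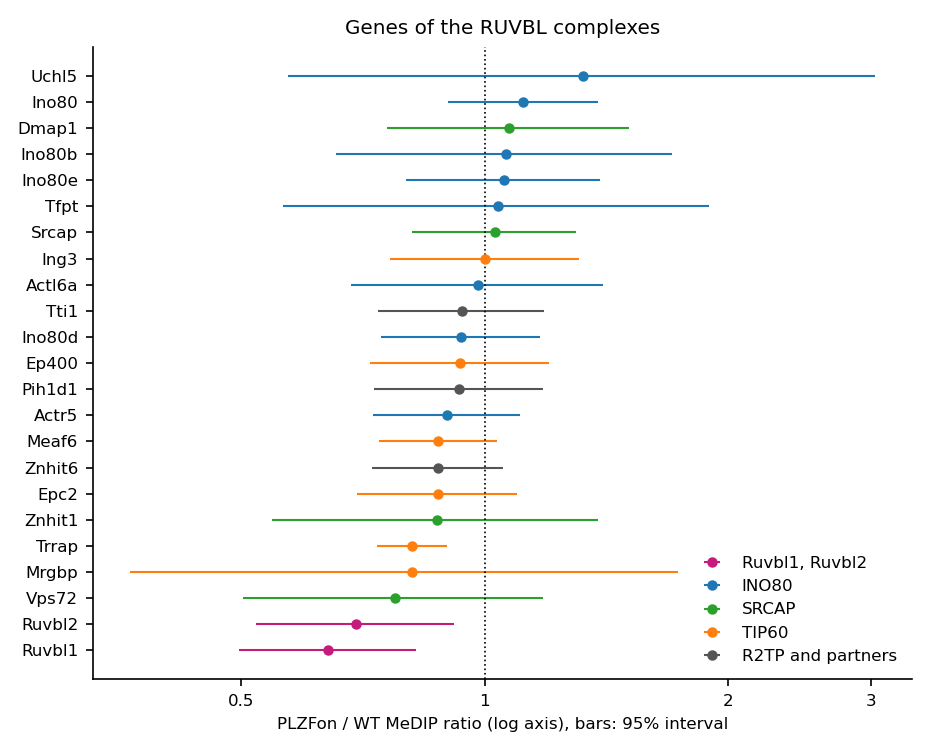
PLZFon over WT MeDIP ratio (x axis, log scale) with 95% intervals for Ruvbl1, Ruvbl2 and the 21 genes of their complexes with at least 20 reads, coloured by complex. Ruvbl1 (0.641), Ruvbl2 (0.694) and Trrap (0.814) have intervals below 1.

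The loci most like each gene were taken as the nearest 3 of those with at least 200 reads by Euclidean distance over 3 log2 values (MeDIP ratio, WT MeDIP over input, and input ratio), which come from the same 4 libraries. For Ruvbl1 they were Zfp936 (distance 0.15), with a MeDIP ratio of 0.692 (0.515 to 0.921), Cpne1 (0.21), at 0.74 (0.573 to 0.95), and Coq8b (0.21), at 0.693 (0.534 to 0.894). For Ruvbl2 they were Zfp341 (0.08), at 0.725 (0.582 to 0.901), the cytokine gene Il16 (0.10), at 0.723 (0.545 to 0.953), and Zfp936 (0.11). Each of these had 222.5 to 378.5 MeDIP reads, and their intervals overlap those of Ruvbl1 and Ruvbl2. The distance includes the MeDIP ratio, so similar ratios and overlapping intervals follow from the choice of these loci.

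The authors' own comparison of the MeDIP libraries called no window of either gene. In the authors' deposited table the lowest adjusted p over the 120 windows was 1, while 0.0144% of all listed windows had an adjusted p below 0.05. Before adjustment 4 of 67 windows of Ruvbl1 and 3 of 53 of Ruvbl2 had an edgeR p below 0.05 in the authors' deposited table, all lower in PLZFon, against 1.68% of all listed windows. The smallest in Ruvbl1 was 0.0352 (88485401 to 88485500, log2 fold change -2.19, from 2 PLZFon and 14 WT reads, with the same values at 88486401 to 88486500), and in Ruvbl2 0.00704 (45427601 to 45427700, log2 fold change -1.64), by the authors' deposited table. The 3 windows of Ruvbl2 are neighbours and share reads. Since each MeDIP group held 1 library, these deposited p-values measure no spread between libraries or animals. The authors' relative methylation score, for which the way of calculation is not given in the sources used here, averaged 0.629 in WT and 0.522 in PLZFon over the windows of Ruvbl1. Over Ruvbl2 it averaged 0.641 and 0.547, and over all listed windows 0.625 and 0.57. The score was lower in PLZFon in 62 of 67 windows of Ruvbl1 and 49 of 53 of Ruvbl2, against 77.5% of all listed windows.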

How the data were processed

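MeDIP and input DNA of NKT cells was sequenced for WT and PLZFon mice, 1 library per group, grouped by their titles. BWA, edgeR and mm10 are named per the submitters' processing notes, with no versions, and sorted, unique-filtered alignments per the file headers. The authors deposited raw counts per 100 bp window, RPKM computed from them, a relative methylation score, a CpG factor score, and edgeR log2 fold changes with p-values and adjusted p-values. The deposited table ends within chromosome 7, and 6 of its columns were not used. Regions beyond it were not analysed here.

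The read total of each library was taken as the total that turns the deposited counts into the deposited RPKM. The number of windows a read is counted in (4) was taken from how the squared difference between input windows grew with distance. Ratios carry Clopper-Pearson 95% intervals, which are exact only for whole read counts and approximate for window sums divided by 4, and no p-value was computed. PCR duplicates are not covered. The interval rule was run on simulated data, but the outcome is not reported here and adds no support to the intervals. The members, lists and rules were chosen with earlier results of these data known. Named were Ruvbl1 and Ruvbl2, complex genes called at 1.5-fold or otherwise the 3 highest and lowest (further ones by role, outside the rule), neighbours with at least 100 reads, the 3 most similar loci, and windows with the most reads, extreme ratios, highest CpG factor or smallest deposited p. Of 41 list symbols 41 matched the gene table, 1 through a synonym. Alternatives were TMM factors, scaling by the listed windows or within CpG factor classes, other flanks, windows, bins and read minimums. Tools were Python 3.11.15, SciPy 1.17.1, R 4.3.3 and edgeR 4.0.16 (TMM only).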

Additional observations from a re-analysis of the deposited data

How the results depend on the processing

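Of 47 recomputed values 43 stayed within the interval or spread of the reported one, and 4 changed side. The MeDIP ratio of Ruvbl1 ran from 0.598 to 0.678 over 9 alternatives and that of Ruvbl2 from 0.574 to 0.763, with every interval below equality (highest upper bounds 0.891 and 0.953), and the 1.5-fold call of Ruvbl1 ended only without its island with the most reads (0.678). Ruvbl2, not called in the report, passed 1.5-fold with windows of at least 20 reads (0.574, 0.372 to 0.868), with every 4th window (0.655, 0.496 to 0.858) and without its island with the most reads (0.615, 0.432 to 0.864). Windows can reach 20 reads through WT alone, the deeper library, so this filter itself favours low ratios. The Ruvbl2 island left out had a ratio of 0.908, above that of the locus, so leaving it out lowers the ratio by construction. Input ratios ran from 0.833 to 0.935 and from 0.823 to 0.89 over 6 alternatives each, with every interval including equality. Scaling by the listed windows, which were chosen for their MeDIP reads, set MeDIP over input below 1: 0.909 in WT and 0.681 in PLZFon for Ruvbl1, and 0.791 and 0.659 for Ruvbl2. By construction this scale compares a locus with the mean listed window. With bins of 5 kb, 6 of 7 bins of Ruvbl1 were below 1, with no share over all bins of that size given here. The median of the complex genes ran from -0.10 to -0.04. TMM factors moved all log2 MeDIP ratios by 0.05. The removal of the island with the most reads, and the alternatives for MeDIP over input between genotypes, were chosen after seeing the data. No paired analysis was possible because each group has 1 library. Depth limits single islands and windows most: a window of these genes held at most 35 MeDIP reads.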
